A study of Mus musculus with 30 samples.

Results

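The 10 genes described here make or receive the prostaglandins and leukotrienes, signalling lipids cut from arachidonic acid: Hpgds, Ptgs1, Ptgs2, Ptgds, Ptges, Tbxas1, Alox5, Alox5ap, Ltc4s and Cysltr1. They were chosen by name, as the rows of the deposited count table that carry these symbols. Each symbol had 1 row, so 10 of the table's 51752 genes are described, in whole forebrain and in CD11b+ cells isolated from the same mice.

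The study asked what the loss of interleukin-34 (IL34), a ligand of the receptor Csf1r that microglia carry, does to the forebrain and its microglia. In the genotype experiment, IL34 KO mice (3 animals) were compared with IL34 Het mice (4 animals), so the controls carry 1 altered allele and are not wild type. In the antibody experiment, wild-type mice received a blocking antibody against IL34 (a-IL34, here anti-IL34, 4 animals) or the control antibody a-gp120 (here anti-gp120, 4 animals). All 15 mice were perfused with saline, and each gave 1 library of whole forebrain and 1 of CD11b+ cells collected with magnetic beads, 30 libraries in all, with both sexes in every arm. Strain, age, the dose and timing of the antibodies, the form of the deleted allele and the cells that lack it are not given in the sources used here. Replicates are separate animals. The 2 experiments have different controls, and whatever else differed between them cannot be told apart from genotype against antibody.

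Arachidonic acid is released from membranes by phospholipases. The cyclooxygenases Ptgs1 and Ptgs2 turn it into prostaglandin H2, from which terminal synthases make prostaglandin D2 (Hpgds, Ptgds), prostaglandin E2 (Ptges) or thromboxane A2 (Tbxas1). In the other branch the 5-lipoxygenase Alox5, with its activating protein Alox5ap, makes leukotriene A4, which Ltc4s joins to glutathione to give leukotriene C4, and Cysltr1 is a receptor for the cysteinyl leukotrienes made from it. In brain, Ptgs1, Hpgds and Tbxas1 are known from microglia, Ptgds from the meninges, choroid plexus and oligodendrocytes, and Ptgs2 from active excitatory neurons.

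Library totals lay between 15.1 and 75.2 M counts (M for mega). Il34 was lower in KO than in Het forebrain by edgeR's test (log2 fold change -1.50, SE 0.10, adjusted p = 1.01e-05), which checks the genotype labels. In the isolates it did not pass (-0.27, SE 0.27, adjusted p = 0.493), and the antibody arms did not pass in either tissue. The summed CPM (counts per M) of 15 microglia marker genes was 13380 to 24010 in Het isolates and 288 to 326 in Het forebrain. Itgam, the gene of CD11b itself, was listed at 0 in every forebrain library and in every anti-gp120 isolate, while 14 of the 15 markers averaged at least 1 CPM in every isolate arm. The isolates also held RNA of other cells. Their astrocyte marker sum ran from 3147 CPM in a Het isolate to 18590 CPM in an anti-IL34 isolate.

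Short stretches of DNA before the start sites are shown because several members moved together below, and macrophage factors are known to bind such sites. RefSeq promoter entries (GRCm38.p6, from 250 bases before to 50 bases after the start) were matched for 8 of the 10 members. Entries for Alox5ap and Cysltr1 were not matched. The letters AGGAAG, the core of sites bound by ETS factors such as PU.1 in microglia and macrophages, were searched on both strands in the 250 bases before the start. They stood in 5 of the 8 entries, against 29.5% of 32851 RefSeq promoters. The longer form GAGGAAGT, which contains the shorter one, stood in 2 of the 8, Hpgds and Ptgs1, against 2.44%. The motifs were chosen with the sequences already seen, so these shares are a description. For each of the 5 entries the match nearest the start is given with its neighbouring bases, 30 bases in all, 5′ to 3′ along the gene. Capitals mark the match, written CTTCCT where it lies on the opposite strand:
Hpgds, chr6:65144761-65144790, minus strand: gcttttaggtggAGGAAGtggcctctggct
Ptgs1, chr2:36230391-36230420, plus strand: aggctggagcagAGGAAGttggcggtcagc
Tbxas1, chr6:38918952-38918981, plus strand: tctccctctgCTTCCTTCCTctttataaag
Ltc4s, chr11:50238632-50238661, minus strand: ggaacaactggaAGGAAGtggtcaagctgt
Ptgs2, chr1:150099902-150099931, plus strand: gcagcttcccggCTTCCTtcgtctctcatt

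Hpgds, Ptgs1, Tbxas1 and Ltc4s are the members that passed in at least 3 of the 4 comparisons of arms below, and Ptgs2 is shown because it holds the same letters and passed in no comparison of arms. No match was found in the windows of Ptgds, Ptges and Alox5. The Tbxas1 site is a pair of overlapping matches on the opposite strand next to a tataaa run, and the Hpgds site shown lies inside the exon that GENCODE M21 draws upstream of the RefSeq start. Hpgds holds a further AGGAAG match in that exon, 66 to 61 bases before the start, that is not shown. The windows of Ptgs1, Tbxas1 and Ltc4s, shown for the surroundings of the site and without bases that GENCODE M21 places in an exon of the gene, read as follows:
Ptgs1, chr2:36230176-36230425, plus strand: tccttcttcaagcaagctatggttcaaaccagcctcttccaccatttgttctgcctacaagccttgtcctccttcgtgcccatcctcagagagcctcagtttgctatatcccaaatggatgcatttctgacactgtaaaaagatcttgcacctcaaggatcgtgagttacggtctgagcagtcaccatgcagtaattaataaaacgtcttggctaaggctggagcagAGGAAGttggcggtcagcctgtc
Tbxas1, chr6:38918736-38918979, plus strand: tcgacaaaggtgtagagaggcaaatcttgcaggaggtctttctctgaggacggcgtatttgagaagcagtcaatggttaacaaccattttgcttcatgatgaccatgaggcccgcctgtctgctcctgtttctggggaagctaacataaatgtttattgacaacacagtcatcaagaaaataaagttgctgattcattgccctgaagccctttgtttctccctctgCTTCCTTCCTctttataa
Ltc4s, chr11:50238617-50238782, minus strand: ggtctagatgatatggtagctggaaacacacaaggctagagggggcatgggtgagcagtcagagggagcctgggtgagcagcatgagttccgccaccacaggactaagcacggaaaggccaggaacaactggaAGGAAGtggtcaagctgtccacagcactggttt

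In the 8 control mice (Het and anti-gp120), 9 of the 10 members were higher in the CD11b+ isolates than in forebrain, where 40.8% of all genes tested were higher. The comparison of tissues measured differences of 5.68 (SE 0.17) on the log2 scale for Hpgds, 5.52 (SE 0.16) for Tbxas1, 5.49 (SE 0.15) for Alox5ap and 5.35 (SE 0.17) for Ltc4s. Ptgs1 differed by 4.88 (SE 0.14), Cysltr1 by 4.82 (SE 0.20), Alox5 by 3.56 (SE 0.16) and Ptgs2 by 3.31 (SE 0.30), each with an adjusted p of 3.26e-08 or less. Ptges, the inducible prostaglandin E synthase, differed by only 0.50 (SE 0.18, adjusted p = 0.0158) and did not pass without anti-gp120 mouse 7 or mouse 8 (adjusted p = 0.0638 and 0.0543). Ptgds did not pass (0.27, SE 0.47, adjusted p = 0.598). Csf1r, the IL34 receptor, differed by 6.17 (SE 0.19).

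Levels can be compared between genes only per length, here as transcripts per M (TPM, M for mega). The deposited TPM divide by the whole gene span, introns included, so a TPM on merged exon length is given beside them. Ptgds was the most abundant member in control forebrain on either scale, at 890.3 ± 236 TPM by span and 407 ± 106 TPM by exons (SD, n = 8). By exons the next were Ptgs1 at 22.0 ± 4.6, Hpgds at 13.3 ± 3.6 and Ptgs2 at 12.4 ± 3.9 TPM, with Hpgds and Ptgs2 within their spread of each other. The lowest were Alox5 at 2.79 ± 0.69 and Cysltr1 at 1.50 ± 0.58 TPM. In control isolates the exon scale put Hpgds at 539 ± 103, Ptgs1 at 523 ± 62 and Ptgds at 448 ± 468 TPM, and these 3 did not differ beyond their spread. Ltc4s at 277 ± 53 and Alox5ap at 218 ± 45 TPM followed, also within their spread of each other, and Ptges was last at 9.04 ± 3.57 TPM. The Ltc4s level on either scale depends on how reads over the overlapping gene Gm26542 were assigned, which is not given. By span Ptgds in control isolates was at 2907 TPM in Het mouse 20 and at 122 to 1226 TPM in the other 7, a spread that takes in Ltc4s at 498 ± 93 TPM. Tbxas1, whose span of 209182 bases holds 9094 exon bases, was at 18.5 TPM by span and 111 TPM by exons.

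Whole forebrain of KO mice had less Hpgds, Tbxas1 and Ltc4s RNA than that of Het mice. These 3 of 10 members were lower and none was higher, where 0.615% of all genes tested were lower and 0.00517% higher. The members' median log2 fold change was -0.67 and that of all genes tested was -0.00021. KO and Het libraries did not overlap for 6 members, all lower in KO (5.24% of all genes), since Ptgs1, Alox5ap and Cysltr1 also separated without passing. In bulk tissue, fewer cells of a type and less RNA per cell cannot be told apart. The microglia marker sum fell alongside, from 288 to 326 CPM in Het to 126 to 143 CPM in KO forebrain, with 12 of 14 tested markers lower, and its part in these changes was not tested here. Of the 10 oligodendrocyte lineage markers 5 were lower too (median log2 fold change -0.31), their sum was 5521 to 6586 CPM in Het and 4515 to 4854 CPM in KO forebrain, and their part was not tested. Heat-shock genes summed to 1041 to 1176 CPM in Het and 1182 to 1279 CPM in KO forebrain, and their part was not tested either.

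Hpgds, the blood-cell type of prostaglandin D synthase, was at 10.5, 10.4, 11.5 and 11.1 CPM in Het forebrain and at 3.92, 4.71 and 3.88 CPM in KO forebrain. Every KO library lay far below every Het library. The difference was 2.57-fold (log2 fold change -1.36, SE 0.10, adjusted p = 1.47e-05), and it passed in 7 of 7 fits that left out 1 mouse. Tbxas1, which makes thromboxane A2, was at 3.64, 3.69, 3.37 and 3.79 CPM in Het and at 1.87, 2.14 and 1.47 CPM in KO forebrain. It was 1.94-fold lower (log2 fold change -0.96, SE 0.15, adjusted p = 0.00886), with an adjusted p of 0.0829 without KO mouse 3. Ltc4s was at 1.40, 1.52, 1.16 and 1.23 CPM in Het and at 0.552, 0.295 and 0.473 CPM in KO forebrain, which rests on 10 to 18 counts per KO library. It was 3.14-fold lower (log2 fold change -1.65, SE 0.27, adjusted p = 0.0114), with an adjusted p of 0.115 without KO mouse 6. The Ltc4s span shares 1664 of its 2156 bases with Gm26542 on the other strand. The strand of the reads was not kept by this kind of kit, so reads of the pair can be mixed or left uncounted. How reads over both genes were assigned is not given, and summing their counts adds back no uncounted read. With both genes counted as 1, the log2 fold change was -0.79 and the call was lost (adjusted p = 0.0562).

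The remaining members did not pass in KO forebrain. Ptgs1, the constitutive cyclooxygenase, was at 10.4 to 13.8 CPM in Het and 7.44 to 9.11 CPM in KO forebrain, without overlap (log2 fold change -0.55, SE 0.11, adjusted p = 0.0579). Alox5ap was at -0.87 (SE 0.26, adjusted p = 0.341) and Cysltr1 at -0.78 (SE 0.25, adjusted p = 0.378) on the log2 scale, with KO libraries at 10 to 36 and 13 to 25 counts. The arms overlapped for Ptgs2 (-0.02, SE 0.19), Ptgds (-0.18, SE 0.12), Ptges (-0.14, SE 0.11) and Alox5 (-0.21, SE 0.24), all with an adjusted p of 0.793 or more.

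**Figure D1:**
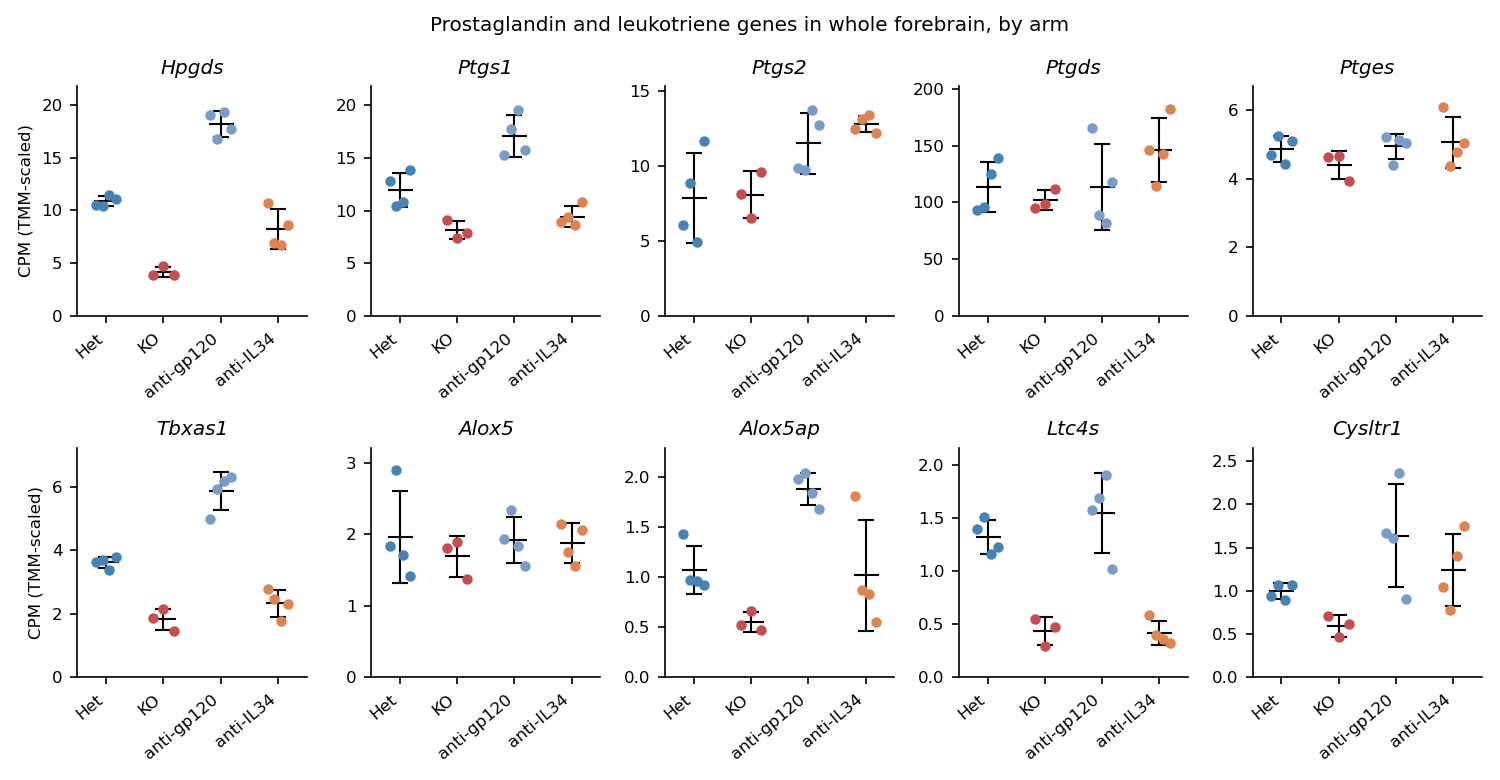
CPM of each of the 10 genes in the 15 whole-forebrain libraries, 1 panel per gene with its own axis from 0. Points are mice, horizontal bars are arm means and error bars are ± SD (n = 4, KO n = 3). Hpgds, Ptgs1, Tbxas1 and Ltc4s are lower in KO than in Het and in anti-IL34 than in anti-gp120 libraries without overlap. The arms overlap for Ptgs2, Ptgds, Ptges and Alox5.

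In forebrain after the antibody against IL34, Hpgds, Tbxas1 and Ltc4s were again lower, and Ptgs1 passed as well. These were 4 of 10 members, with none higher, where 0.525% of all genes tested were lower and 0.192% higher. These 4 were also the members whose arms did not overlap (2.07% of all genes were lower without overlap). The members' median was -0.64 on the log2 scale, against 0.00079 for all genes tested. The microglia marker sum went from 475 to 608 CPM with anti-gp120 to 215 to 281 CPM with anti-IL34, with 13 of 14 tested markers lower, and its part was not tested here. Border-associated macrophage markers summed to 18.15 to 28.4 CPM with anti-gp120 and 9.03 to 18.14 CPM with anti-IL34, and endothelial and mural markers to 362 to 407 and 317 to 357 CPM. Both sums were without overlap of arms, no single marker of either list passed, and their part was not tested.

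Hpgds was at 19.1, 16.8, 19.3 and 17.7 CPM in anti-gp120 and at 10.7, 6.89, 6.69 and 8.63 CPM in anti-IL34 forebrain. It was 2.29-fold lower (log2 fold change -1.20, SE 0.14, adjusted p = 0.00340). Tbxas1 was at 4.99, 5.94, 6.18 and 6.31 CPM against 2.79, 2.47, 1.76 and 2.30 CPM, 2.51-fold lower (log2 fold change -1.33, SE 0.17, adjusted p = 0.00438). Both kept their call in 8 of 8 fits that left out 1 mouse. Ptgs1 was at 15.3, 17.8, 19.6 and 15.8 CPM against 8.90, 9.38, 8.61 and 10.8 CPM, and all 4 treated mice lay below all controls. The 1.81-fold difference (log2 fold change -0.86, SE 0.12) had an adjusted p of 0.00645, and of 0.0912 without anti-IL34 mouse 11. Ltc4s was at 1.58, 1.69, 1.91 and 1.02 CPM against 0.585, 0.404, 0.363 and 0.321 CPM, on 7 to 17 counts per treated library. It was 3.90-fold lower (log2 fold change -1.96, SE 0.28, adjusted p = 0.00843). Its adjusted p was 0.0782 without anti-IL34 mouse 11 and 0.0506 without anti-gp120 mouse 7. Counted as 1 gene with Gm26542 it was at -1.02 (adjusted p = 0.0175).

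Alox5ap, the partner of 5-lipoxygenase, was at 1.68 to 2.04 CPM in anti-gp120 forebrain and at 1.82, 0.879, 0.830 and 0.551 CPM in anti-IL34 forebrain. Mouse 2 lay among the controls and the other 3 below them (log2 fold change -1.02, SE 0.30, adjusted p = 0.335). Cysltr1 (-0.42, SE 0.32), Alox5 (-0.13, SE 0.18), Ptges (0.02, SE 0.14), Ptgds (0.31, SE 0.20) and Ptgs2 (0.24, SE 0.10) had overlapping arms and adjusted p-values of 0.894 or more.

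Hpgds in control forebrain was at 10.9 ± 0.5 CPM in Het and 18.2 ± 1.2 CPM in anti-gp120 forebrain (SD, n = 4 each), with the microglia marker sum at 306 and 552 CPM on average. These forebrain arms also lay apart for Ptgs1 (10.4 to 13.8 against 15.3 to 19.6 CPM) and Tbxas1 (3.37 to 3.79 against 4.99 to 6.31 CPM). The same held for Alox5ap (0.920 to 1.44 against 1.68 to 2.04 CPM). Ptgds was close at 113.4 and 113.6 CPM on average, as was Ptges at 4.88 and 4.96 CPM. In control isolates the averages were 401 and 394 CPM for Ptgs1, 55.8 and 134 CPM for Ptgs2, and 4.80 and 9.15 CPM for Ptges. Mice of the 2 experiments differ in genotype and treatment at once, so no test is given between these arms.

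In the isolates of KO mice, 7 of the 10 genes were lower than in those of Het mice: Ptgs1, Hpgds, Tbxas1, Alox5, Alox5ap, Ltc4s and Cysltr1, with none higher. In this comparison 5.22% of all genes tested were lower and 0.143% higher. For the same 7 the arms did not overlap (19.4% of all genes were lower without overlap). Ptges was the only member that lay higher in every KO than in every Het isolate (19.3% of all genes), without passing. The members' median was -1.37 on the log2 scale against 0.018 for all genes tested. Each of the 7 calls was lost in 5 of 7 fits that left out 1 mouse (without Het 20, Het 23, KO 3, KO 6 or KO 24), in which no gene of the table passed. Over the 7 fits the value nearest to 0 among these genes was -0.75, for Alox5. All 14 tested microglia markers and 4 of 8 heat-shock genes were lower in the same isolates. The sums of astrocyte markers (3147 to 11080 CPM in Het, 12570 to 15490 CPM in KO) and inhibitory neuron markers (16.6 to 53.9 against 54.1 to 95.8 CPM) were higher in every KO than in every Het isolate, with no single marker of either list passing. The part of these 4 lists was not tested.

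Ptgs1 was at 336, 395, 503 and 369 CPM in Het isolates and at 125, 141 and 124 CPM in KO isolates, 3.05-fold lower (log2 fold change -1.61, SE 0.18, adjusted p = 0.0136). Hpgds was at 445, 539, 978 and 591 CPM against 202, 227 and 229 CPM, 2.83-fold lower (log2 fold change -1.50, SE 0.29, adjusted p = 0.0353). The KO mice were close to one another in both genes, and Het mouse 21 stood highest. Tbxas1 was at 180, 187, 249 and 198 CPM against 72.0, 85.3 and 65.1 CPM, 2.71-fold lower (log2 fold change -1.44, SE 0.16, adjusted p = 0.0136). Hpgds and Tbxas1 are alternative terminal synthases that both use the prostaglandin H2 made by Ptgs1.

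In the leukotriene branch, Alox5ap was at 45.4, 46.4, 65.9 and 50.3 CPM in Het and at 18.9, 18.6 and 19.1 CPM in KO isolates, 2.69-fold lower (log2 fold change -1.43, SE 0.15, adjusted p = 0.0136). Alox5 itself was at 18.9, 19.3, 22.8 and 18.2 CPM against 11.0, 9.74 and 12.2 CPM, 1.77-fold lower (log2 fold change -0.83, SE 0.14, adjusted p = 0.0279). Alox5 had the smallest change of the 7. Ltc4s was at 38.7, 53.8, 76.0 and 54.3 CPM against 14.1, 19.9 and 16.7 CPM, 3.33-fold lower (log2 fold change -1.74, SE 0.24, adjusted p = 0.0161). Gm26542, its partner on the other strand, was lower too (-1.38, SE 0.17, adjusted p = 0.0143), and counted as 1 gene the pair was at -1.59 (adjusted p = 0.0144). The receptor gene Cysltr1 was at 26.0, 31.4, 43.1 and 28.1 CPM against 13.6, 12.7 and 11.6 CPM, 2.47-fold lower (log2 fold change -1.30, SE 0.18, adjusted p = 0.0165). Its span shares 20494 bases with Gm5127, and the pair counted as 1 gene did not pass (-0.86, adjusted p = 0.0830).

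Ptges, Ptgs2 and Ptgds did not pass in KO isolates. Ptges was at 5.83, 5.67, 3.12 and 4.57 CPM in Het and at 8.75, 6.86 and 8.14 CPM in KO isolates (log2 fold change 0.73, SE 0.27, adjusted p = 0.132). Ptgs2, the inducible cyclooxygenase, was at 18.2 to 91.8 CPM in Het and 37.0 to 42.3 CPM in KO isolates (-0.50, SE 0.48, adjusted p = 0.481). Ptgds ranged from 60.4 to 433 CPM in Het isolates and was at 914, 181 and 37.4 CPM in KO isolates (0.79, SE 1.30, adjusted p = 0.689), and without KO mouse 3 the value was -1.23. The KO isolates alone spanned more than the distance between the arms' means.

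**Figure D2:**
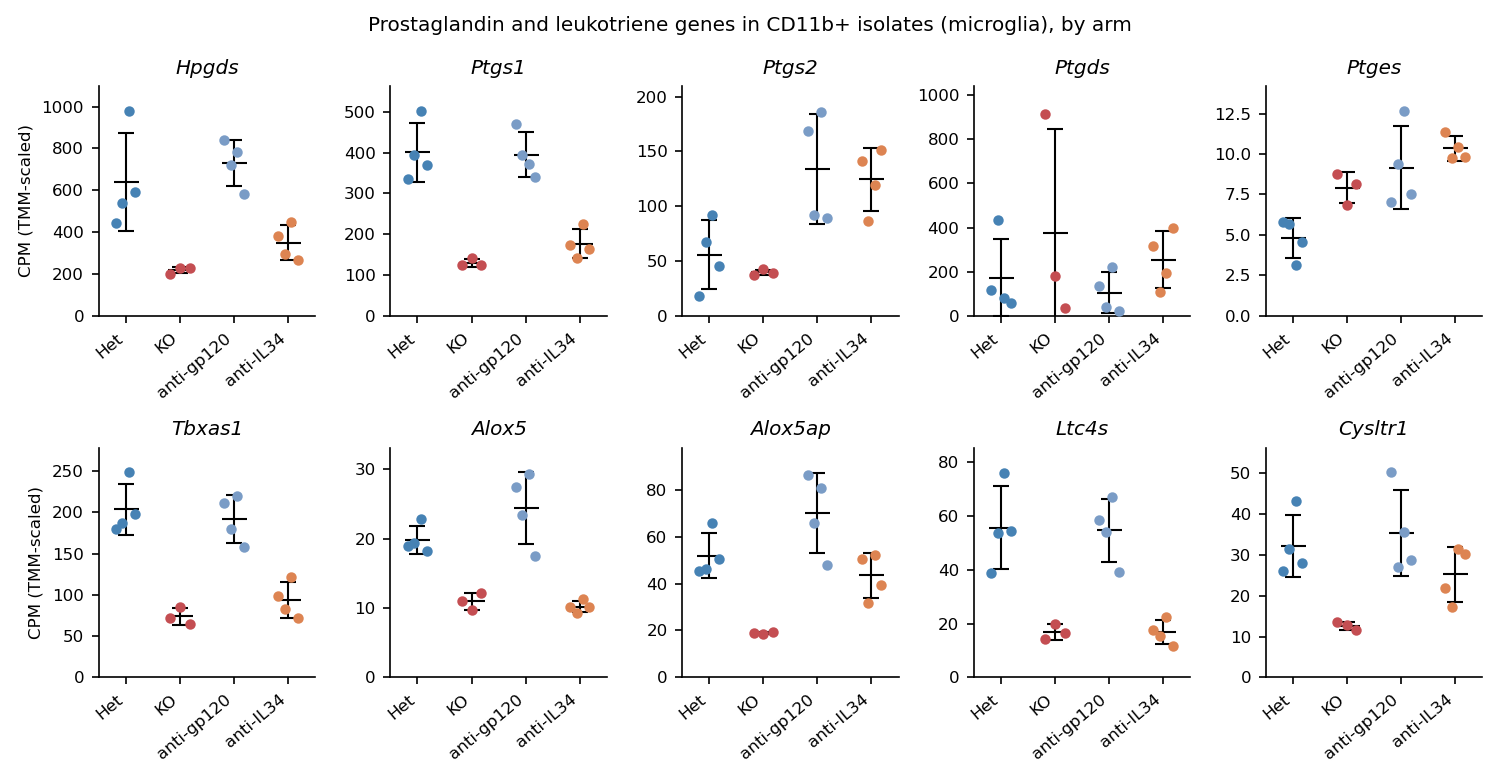
CPM of each gene in the 15 CD11b+ isolates, 1 panel per gene with its own axis from 0. Points are mice, horizontal bars are arm means and error bars are ± SD (n = 4, KO n = 3; bars for Ptgds are cut at 0). In 7 panels (Hpgds, Ptgs1, Tbxas1, Alox5, Alox5ap, Ltc4s, Cysltr1) all KO points lie below all Het points, and Ptgds has 1 KO isolate at 914 CPM.

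Isolates of mice given the antibody against IL34 had less Ptgs1, Alox5 and Ltc4s. These 3 of 10 members passed, with none higher, where 0.603% of all genes tested were lower and 0.0228% higher. Arms did not overlap for 5 members, which adds Hpgds and Tbxas1 (13.1% of all genes were lower without overlap). The members' median was -0.82 on the log2 scale against 0.057 for all genes. All 3 calls were lost in 6 of 8 fits that left out 1 mouse (anti-gp120 1, 7 or 8, anti-IL34 2, 10 or 24). Without anti-IL34 mouse 11 there were 5 lower members, and without anti-gp120 mouse 15 there were 6. Csf1r itself was at -0.99 (SE 0.22, adjusted p = 0.0749), and 8 of 14 tested microglia markers were lower.

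Alox5 was at 27.5, 23.4, 29.3 and 17.5 CPM in anti-gp120 and at 10.1, 9.29, 11.2 and 10.1 CPM in anti-IL34 isolates, 2.35-fold lower (log2 fold change -1.23, SE 0.18, adjusted p = 0.0399). The treated mice were within 2 CPM of each other. Ltc4s was at 58.4, 54.0, 67.1 and 39.0 CPM against 17.8, 15.6, 22.6 and 11.6 CPM, 3.10-fold lower (log2 fold change -1.63, SE 0.23, adjusted p = 0.0374). With Gm26542 counted in, it was at -1.17 (adjusted p = 0.0566). Ptgs1 was at 470, 395, 371 and 341 CPM against 174, 142, 226 and 164 CPM, 2.18-fold lower (log2 fold change -1.12, SE 0.18, adjusted p = 0.0466). Hpgds was at 840, 721, 782 and 585 CPM against 383, 297, 449 and 267 CPM and did not pass (-1.02, SE 0.20, adjusted p = 0.0603). Tbxas1 did not pass either (-0.97, SE 0.18, adjusted p = 0.0563), although every treated mouse lay below every control mouse in both genes.

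For Alox5ap the treated isolates, at 31.6 to 52.3 CPM, overlapped the controls at 47.9 to 86.3 CPM (-0.66, SE 0.24, adjusted p = 0.160). Cysltr1 overlapped likewise (17.4 to 31.5 against 27.1 to 50.2 CPM, -0.45, SE 0.27, adjusted p = 0.279). Ptgds (1.35, SE 0.80), Ptges (0.26, SE 0.20) and Ptgs2 (-0.07, SE 0.31) had adjusted p-values of 0.282 to 0.884.

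**Figure D3:**
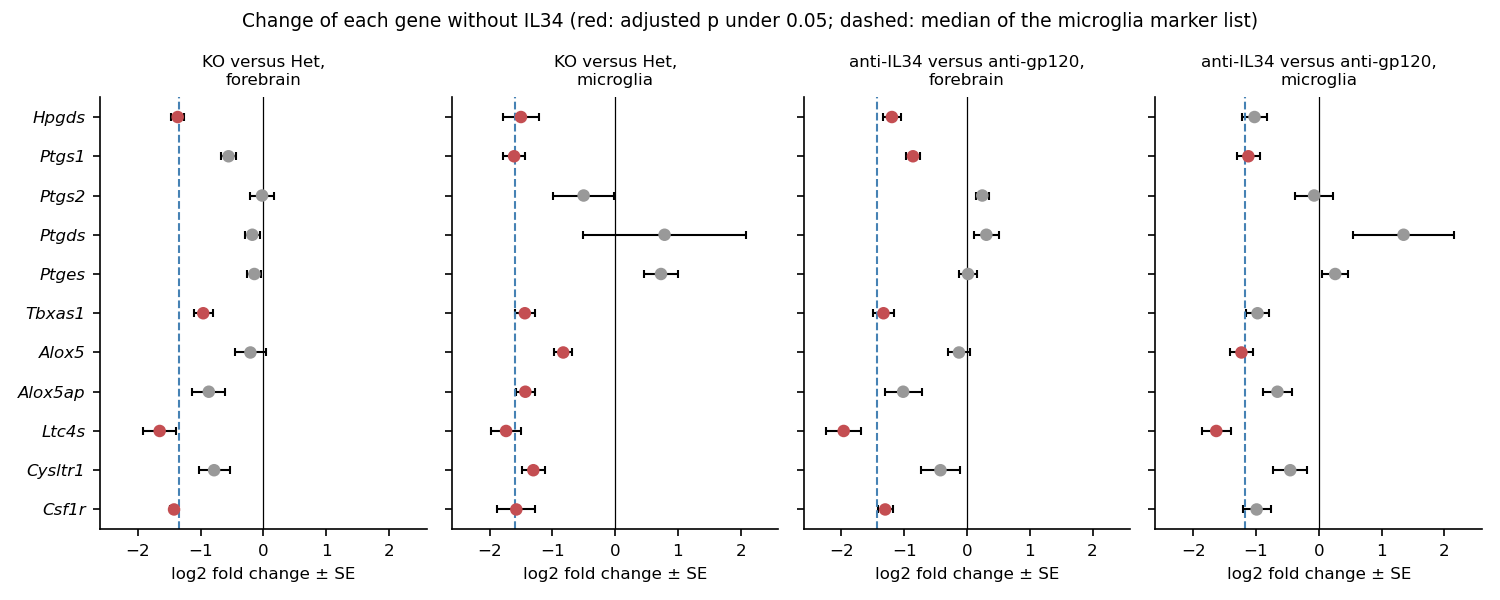
Log2 fold change (horizontal axis, ± SE) of the 10 genes and of Csf1r in the 4 comparisons of arms; negative values are lower in KO or anti-IL34 mice. Red points have an adjusted p under 0.05, and the dashed line is the median of the tested microglia markers (-1.34, -1.59, -1.44 and -1.18 from left to right). Hpgds, Ptgs1, Tbxas1, Alox5ap, Ltc4s, Cysltr1 and Csf1r lie below 0 by more than their SE in all panels, whereas none of Ptgs2, Ptgds and Ptges is red in any panel.

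Markers of other cells that carry this pathway were read in the same isolates. The platelet list, named here because Tbxas1 and Ptgs1 are known from platelets, summed to 4.39 to 6.60 CPM in Het, 2.38 to 3.28 in KO, 4.69 to 6.29 in anti-gp120 and 2.32 to 3.29 CPM in anti-IL34 isolates. These sums did not overlap between arms in either experiment, and 1 of the 3 tested platelet markers was lower in each. The median log2 fold change of the 3 was -0.07 in KO and 0.20 in anti-IL34 isolates (0.018 and 0.057 for all genes). The platelet list therefore did not fall as a whole, and its part in the Ptgs1 and Tbxas1 values was not tested. Mast cell markers, which go with Hpgds, Ltc4s and Alox5, summed to 7.72 to 27.0 CPM over the 15 isolates. Hdc, the histidine decarboxylase gene, was the 1 gene of the 8 that averaged at least 1 CPM, and it was at -0.07 in KO and 0.41 in anti-IL34 isolates on the log2 scale without passing. The part of this list in the Hpgds, Ltc4s and Alox5 values was not tested. The neutrophil and monocyte list, cells that carry Alox5 and Alox5ap, summed to 40.9 to 59.0 CPM in Het and 43.8 to 93.9 CPM in KO isolates, and to 51.4 to 344 CPM in anti-gp120 and 175 to 502 CPM in anti-IL34 isolates. Their part in the Alox5 and Alox5ap values was not tested. Border-associated macrophage markers summed to 772 to 956 CPM in Het, 415 to 857 in KO, 549 to 1019 in anti-gp120 and 389 to 553 CPM in anti-IL34 isolates, and their part was not tested. Lymphocyte markers stayed at or below 2.74 CPM.

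To set each gene against microglia marker RNA, its CPM was divided by the summed microglia markers of the same library. Whether these markers change per cell without IL34 was not tested, so a difference near 0 only means a change in step with them. This scale was added after the data were seen. The marker sum was 13380 to 24010 CPM in Het and 5142 to 5895 in KO isolates, and 17470 to 23710 in anti-gp120 and 7529 to 11680 CPM in anti-IL34 isolates. In the isolates Hpgds relative to that sum differed by 0.11 (KO minus Het) and 0.042 (anti-IL34 minus anti-gp120) on the log2 scale. Ptgs1 differed by -0.02 and -0.04, and Tbxas1 by 0.13 and 0.075. All 3 had overlapping arms in both experiments. Exact two-sided permutation p-values were 0.229 to 0.857 for these genes (smallest possible 0.0571 with 4 against 3 mice and 0.0286 with 4 against 4).

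In the antibody experiment Ltc4s relative to the sum was at -0.58 in isolates and -0.70 in forebrain, with no overlap of arms in either (exact permutation p = 0.0286 each, 0.104 after adjustment over 40 such tests). In the genotype experiment it was -0.47 in forebrain (exact permutation p = 0.0571, the smallest possible; adjusted 0.114) and -0.10 in isolates with overlap. In the genotype forebrain the arms were barely apart, at -8.009 in Het mouse 21 and -8.011 in KO mouse 3, and without KO mouse 6 (16 counts) the difference was -0.18. Counted as 1 gene with Gm26542, Ltc4s relative to the sum was at 0.22 in forebrain and -0.093 in isolates in the antibody experiment, and at 0.39 in forebrain and 0.013 in isolates in the genotype experiment, all with overlapping arms. The values with a neighbour counted in or a mouse left out were added after the data were seen as well. Alox5ap and Cysltr1 were at 0.44 and 0.64 relative to the marker sum in anti-IL34 isolates, without overlap (exact permutation p = 0.0286, adjusted 0.104, each; 0.73 for Cysltr1 counted with Gm5127), and Alox5 was at -0.11 with overlap. In KO isolates Alox5 was at 0.74 on this scale, without overlap (exact permutation p = 0.0571, adjusted 0.114). Alox5ap was at 0.14 and Cysltr1 at 0.27 there, both with overlap (exact permutation p = 0.171 and 0.114). Counted with Gm5127, Cysltr1 was at 0.72 in KO isolates without overlap (exact permutation p = 0.0571). Ptgs1 in forebrain was at 0.60 in KO (exact permutation p = 0.0571) and 0.33 with anti-IL34 (exact permutation p = 0.0857). With these smallest p-values no test could pass after adjustment over 40.

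Ptgs2, Ptges and Ptgds, which passed in no comparison of arms on plain CPM, had positive differences on this scale in KO and anti-IL34 mice. Ptgs2 relative to the sum was at 1.26 in KO forebrain, 1.32 in KO isolates, 1.36 in anti-IL34 forebrain and 1.07 in anti-IL34 isolates, without overlap of arms in any. Ptges was at 1.01, 2.35, 1.21 and 1.34 in the same order, also without overlap. Ptgds was at 1.02 in KO forebrain, 1.59 in anti-IL34 forebrain and 2.80 in anti-IL34 isolates without overlap, and at 2.14 in KO isolates with overlap. Alox5 was at 0.98 in KO forebrain and 1.16 in anti-IL34 forebrain, both without overlap. Since the marker sum is the divisor and was lower in these arms, a gene with unchanged CPM lies higher on this scale.

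**Figure D4:**
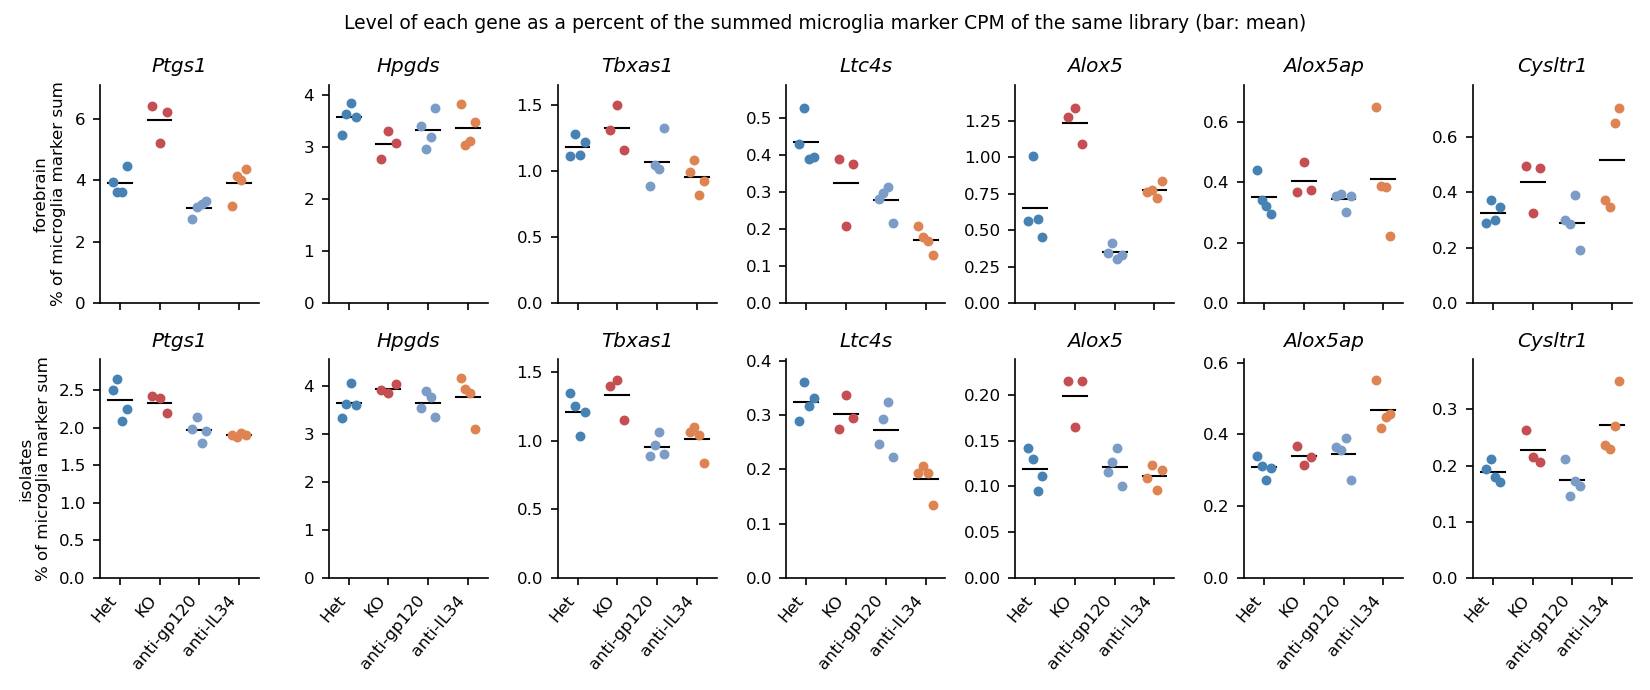
Level of 7 genes as a percent of the summed microglia marker CPM of the same library (vertical axes from 0), upper row forebrain and lower row isolates; points are mice and bars are means. Hpgds, Ptgs1 and Tbxas1 overlap between arms in the isolates of each experiment, while Ltc4s, counted without its overlapping neighbour Gm26542, is lower in every anti-IL34 than in every anti-gp120 library in both tissues.

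The difference between tissues in the response to deletion was tested for all 10 genes. Ptgs1 fell more in the isolates than in forebrain, by 1.03 on the log2 scale (SE 0.22, adjusted p = 0.0371), 1 of 10 members, where 2.43% of all genes tested had a lower effect in isolates. With the animal as a replicate block, which pairs the tissues of a mouse, its adjusted p was 0.119, and the call was also lost in 5 of 7 fits that left out 1 mouse. Hpgds differed by -0.09 (SE 0.32) and Ltc4s by -0.05 (SE 0.48). Ptges differed by 0.92 in the other direction (SE 0.29, adjusted p = 0.0846). For the antibody, 0 of 10 genes differed between tissues by edgeR, where 0.0924% of all genes passed in either direction. DESeq2 called 1 member, Alox5. By edgeR, Alox5 was the only member past 0.05 before adjustment. Alox5 was at -1.12 (SE 0.25, adjusted p = 0.0902), with isolates lower after treatment and forebrain at -0.13.

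Deletion and antibody were compared as effects, each against its own controls. In forebrain 0 of 10 members differed by edgeR or by DESeq2, and 0 had p under 0.05 before adjustment, where 0.0101% of all genes passed. The values ran from -0.49 (SE 0.28) for Ptgds to 0.35 (SE 0.22) for Tbxas1 on the log2 scale. In the isolates 0 of 10 differed by edgeR and by DESeq2, where 0.0% of all genes passed, and 2 had p under 0.05 before adjustment. These were Alox5ap at -0.76 (SE 0.30, adjusted p = 1.00) and Cysltr1 at -0.83 (SE 0.35, adjusted p = 1.00), both lower after deletion. These tests do not show that deletion and antibody act alike. Il34 differed in forebrain (-1.58, SE 0.13, adjusted p = 2.45e-05).

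Ptgds and Ptgs2 varied between isolates of 1 arm, and marker sums of the same libraries are given beside them. Across the 15 isolates Ptgds ranged from 21.7 to 914 CPM. The isolate with the highest Ptgds, KO mouse 3, had the highest sum of meningeal fibroblast and arachnoid markers at 626 CPM, and the KO isolate with the lowest Ptgds, mouse 24 at 37.4 CPM, had the lowest at 173 CPM. The lowest Ptgds of the 15 was in anti-gp120 mouse 15, whose meningeal sum was 199 CPM. Oligodendrocyte lineage markers summed to 8224 CPM in KO mouse 3, 18870 CPM in KO mouse 24 and 10270 CPM in anti-gp120 mouse 15. Choroid plexus markers summed to 1140 to 3903 CPM in the 7 isolates of the genotype experiment. In the antibody experiment they reached 2122 and 554 CPM in anti-IL34 mice 10 and 11 and at most 38.0 CPM in the other 6. In anti-IL34 mouse 2 Ptgds was at 316 CPM with a choroid plexus sum of 7.12 CPM. The part of these 3 lists in the Ptgds values was not tested. Igf2, of the meningeal list, was at 0 in every library. Ptgs2 was lowest, at 18.2 CPM, in Het mouse 1, whose activity-induced early genes (Fos, Egr1 and 8 others) summed to 1704 CPM, and highest, at 186 CPM, in anti-gp120 mouse 8 at 5517 CPM. The lowest early-gene sum, 1663 CPM, was in KO mouse 24 with Ptgs2 at 39.3 CPM, and the highest, 6621 CPM, in anti-gp120 mouse 1 with Ptgs2 at 169 CPM. These genes respond to handling of cells as well as to activity, and their part in the Ptgs2 values was not tested.

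**Figure D5:**
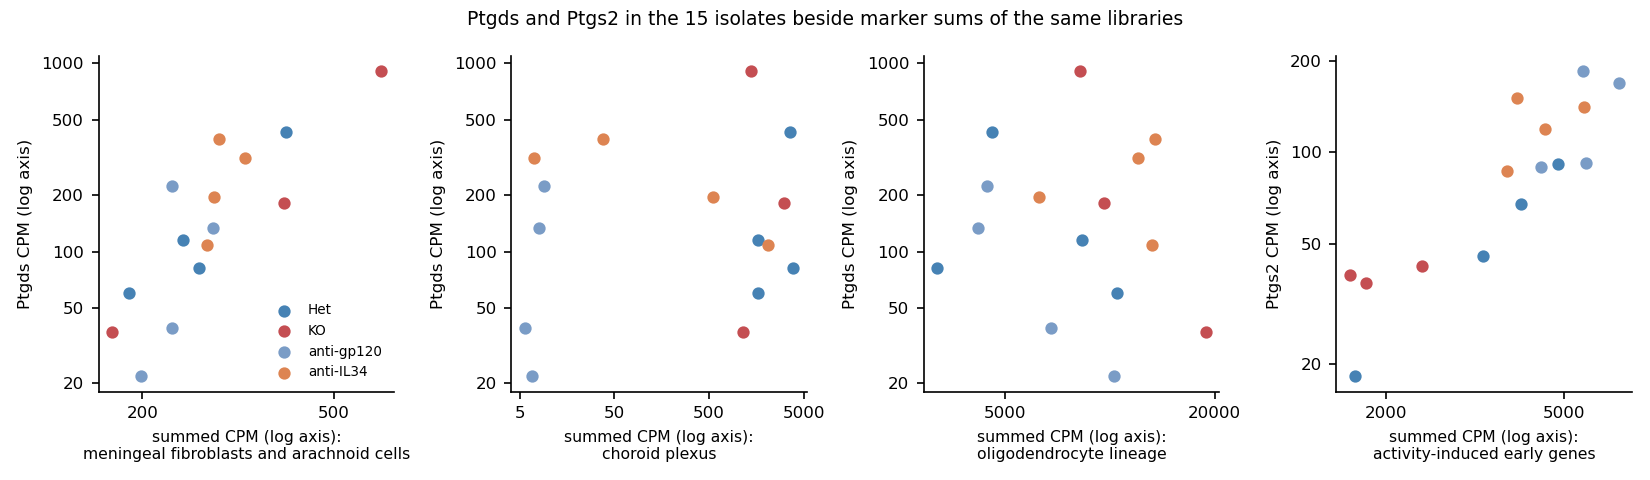
Ptgds (3 panels) and Ptgs2 (right panel) in CPM against summed marker CPM of the same 15 isolates, both on log axes; colours are arms. Ptgds is highest (914 CPM) in the KO isolate with the highest meningeal sum (626 CPM), and Ptgs2 is lowest (18.2 CPM) in a Het isolate with an early-gene sum of 1704 CPM.

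The rest of the pathway was described by 7 lists with 65 genes in the table. In control mice 25 of 52 tested were higher in isolates than in forebrain and 12 lower, where 40.8% and 43.3% of all genes tested were. In KO isolates 5 of the 53 tested were lower and none higher, where 5.22% of all genes were lower, so these are named as single genes and not as a change of the pathway. The median of these 53 was -0.04 against 0.018 for all genes. Pla2g4a, the cytosolic phospholipase that frees arachidonic acid, went from 67.0 ± 15.5 (SD, n = 4) to 38.1 ± 2.1 CPM (n = 3; log2 fold change -0.76, SE 0.16, adjusted p = 0.0452). The lysosomal phospholipase gene Pla2g15 went from 231 ± 68 to 79.1 ± 4.3 CPM (-1.53, SE 0.24, adjusted p = 0.0207). Hpgd, the dehydrogenase that inactivates prostaglandins, went from 199 ± 77 to 67.2 ± 1.5 CPM (-1.49, SE 0.26, adjusted p = 0.0274). Further down the leukotriene branch, Ggt5, which trims leukotriene C4, went from 32.9 ± 3.2 to 12.8 ± 2.7 CPM (-1.35, SE 0.18, adjusted p = 0.0156), and the exporter gene Abcc1 from 50.8 ± 7.4 to 30.3 ± 1.2 CPM (-0.76, SE 0.14, adjusted p = 0.0289). Each of these 5 passed in 2 of 7 fits that left out 1 mouse. No prostanoid receptor (9 tested), other prostanoid synthase (7), leukotriene or lipoxin receptor (4) or other lipoxygenase (4) passed. Among the higher genes that did not pass, Gpr17, a receptor gene known from oligodendrocyte precursors, was at 207 ± 124 CPM in Het and 458 ± 101 CPM in KO isolates (1.11, SE 0.53, adjusted p = 0.183). Lta4h, which makes leukotriene B4 from the same intermediate that Ltc4s uses, was at -0.26 (SE 0.12, adjusted p = 0.175).

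In forebrain after the antibody, Hpgd was the 1 gene of 46 tested that passed (0.525% of all genes were lower and 0.192% higher), going from 8.13 ± 0.86 to 4.69 ± 0.71 CPM (-0.87, SE 0.12, adjusted p = 0.00683), in 7 of 8 fits that left out 1 mouse. In KO forebrain 0 of 50 passed (0.615% of all genes were lower), with Hpgd at -0.54 (SE 0.14, adjusted p = 0.160). In anti-IL34 isolates 0 of 52 passed (0.603% of all genes were lower), with Hpgd at -1.04 (SE 0.18, adjusted p = 0.0515) and Pla2g15 at -1.16 (SE 0.24, adjusted p = 0.0629).

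The genes whose levels followed the members most closely were looked for over the 15 libraries of each tissue, as a description of points that share arms and library depth. In forebrain Hpgds was most like Cd33 (Pearson r = 0.988), Siglech (0.985) and Cx3cr1 (0.985). Tbxas1 was most like Pde3b (0.976), Gpr34 (0.969) and Vsir (0.965), and Ltc4s like Slc2a5 (0.934), P2ry12 (0.928) and Gm6394 (0.922). Ptgs1 was most like Arhgap4 (0.985), F11r (0.955) and Fcrl2 (0.955). Siglech, Cx3cr1, Gpr34, P2ry12 and Fcrl2 (which the marker list names by its older symbol Fcrls) are on the microglia marker list. In the isolates Alox5ap was most like C1qa (0.989), C1qc (0.989) and Aif1 (0.988), Ptgs1 like Gtf2h2 (0.990), Cx3cr1 (0.989) and 6030468B19Rik (0.989), and Hpgds like Txnip (0.995), H2-Oa (0.994) and Wasf2 (0.993). Tbxas1 was most like Sqor (0.989), Zfp715 (0.983) and Ccdc93 (0.982), and Ltc4s like Fchsd2 (0.987), Ints6l (0.986) and Anks6 (0.985). Alox5 was most like Ctsf (0.975), Rrp1b (0.974) and Apob (0.966), and Cysltr1 like Lair1 (0.979), Smarcd2 (0.968) and Sgk3 (0.966).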

How the data were processed

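RNA was measured in whole forebrain and CD11b+ isolates of 15 mice with a low-input full-length kit that does not keep strand, per the labels' protocols. STAR 2.7.5c, featureCounts 1.6.3, R 4.4.0 and GRCm38 are named in the submitters' processing notes, without roles. The authors deposited unnormalised read counts per gene, and TPM that equal count over the deposited Length. Length, the other unit used, is per the file headers. It equals the whole GENCODE M21 gene span for 51183 of 51498 matched genes, 10 of 10 members included. Reads of introns and overlapping genes may therefore be counted. How reads over overlapping genes were assigned is not given, so such reads may also be left out. In each table, 6 columns of unlabelled samples were not used. From the counts, edgeR 4.0.16 (R 4.3.3) quasi-likelihood F tests were run with TMM scaling, filterByExpr, sex as covariate and Benjamini-Hochberg adjustment over all genes tested; a gene passes at an adjusted p under 0.05. CPM are TMM-scaled over the 15 libraries of a tissue. The standard error is the log2 fold change over the root of F. Alternatives were RLE factors, DESeq2 1.42.0, no filter, no sex terms, all 15 libraries of a tissue in 1 fit, limma 3.58.1 voom with quality weights, an animal block and leaving out each mouse; summing overlapping genes and the ratio to microglia markers were added later. The scripts were tested on simulated data.

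The animal numbers pair the 2 libraries of a mouse, since the labels' protocol takes both from 1 brain; same-animal deviations from the arm means correlated with a median r of 0.166 (15 pairs, 12 over 0.1), against -0.054 between animals of an arm (42 pairs). The members and lists were chosen with earlier results of these data known. Named are the members, pathway genes that passed in a comparison of arms and up to 3 per list by level, the 3 genes with the highest r for each called member (1 CPM added before the log), Il34, Csf1r and markers beside a member's result.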

Additional observations from a re-analysis of the deposited data

Results flagged for a closer look

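The gap rule for arms of 4 was applied to 60 groups (10 genes, 3 arms of 4 mice, both tissues) and singled out 2, where chance singles out about 1 in 20. Ptgds in the isolate of Het mouse 20 was at 433 CPM, apart from 60.4 to 116 CPM in the other Het isolates. Alox5ap in the forebrain of Het mouse 1 was at 1.44 CPM (1.435 before rounding), apart from 0.920 to 0.979 CPM in the others. The deletion effect on Ptgs1 differed between tissues by a test of the difference itself, -1.03 on the log2 scale, isolates minus forebrain, with the limits given beside it above.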

How the results depend on the processing

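The main counts of called members, in the order KO forebrain, KO isolates, anti-IL34 forebrain and anti-IL34 isolates, were 3, 7, 4 and 3. Without the filter on low counts they were 5, 7, 6 and 5, with Ptgds among the forebrain calls. KO forebrain gave 4 with DESeq2 and without sex terms (Ptgs1 added), and KO isolates gave 8 with voom quality weights (Ptges added, higher). The anti-IL34 isolates gave 5 with DESeq2, without sex terms and with 15 libraries in 1 fit, and 7 with voom quality weights. Leaving out each mouse gave 2 to 4 in KO forebrain, 0 to 8 in KO isolates, 2 to 5 in anti-IL34 forebrain and 0 to 6 in anti-IL34 isolates, 8 to 9 between tissues (main 9), 0 to 3 for the tissue difference of deletion (main 1), 0 to 1 for that of the antibody (main 0) and 0 for deletion minus antibody in both tissues. The tissue difference of deletion gave 2 with DESeq2 and without sex terms (Ptges added) and 0 with the replicate block, where Ptgs1 had an adjusted p of 0.119; no other call of a member changed with the block. The tissue difference of the antibody gave 1 (Alox5) with DESeq2, without the filter and without sex terms, and deletion minus antibody in forebrain gave 1 (Ptgds) without the filter. RLE factors changed no count.

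Values that changed sign had no call. Ptgs2 in KO forebrain was 0.027 with DESeq2 and 0.0096 without sex terms, Ptgs2 in anti-IL34 isolates 0.11 and Ptges in anti-IL34 forebrain -0.024 with voom weights, and Ptgds between tissues -0.16 with the replicate block. Leaving out 1 mouse, log2 values that crossed 0 ran as follows. In KO forebrain Ptgs2 ran from -0.39 to 0.24 and Alox5 from -0.41 to 0.14, and in KO isolates Ptgds ran from -1.23 to 2.05. In anti-IL34 forebrain Ptges ran from -0.071 to 0.085, in anti-IL34 isolates Ptgs2 ran from -0.28 to 0.16, and between tissues Ptgds ran from -0.19 to 0.44. For the tissue difference of deletion, Hpgds ran from -0.22 to 0.12, Ptgs2 from -0.83 to 0.13, Ptgds from -0.99 to 2.38 and Ltc4s from -0.48 to 0.38. For that of the antibody, Hpgds ran from -0.22 to 0.29, Tbxas1 from -0.058 to 0.61 and Cysltr1 from -0.21 to 0.28. For deletion minus antibody, Alox5 (-0.23 to 0.28) and Alox5ap (-0.086 to 0.46) crossed 0 in forebrain, and Ptgds (-2.34 to 1.16) and Ltc4s (-0.24 to 0.13) in isolates. The cause was not tested. Depth limits Ltc4s, Alox5ap and Cysltr1 in forebrain, at 7 to 38 counts per KO or anti-IL34 library.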
